A study of Mus musculus with 9 samples.

Results

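The genes of oxidative phosphorylation were taken by name from the table of estimated counts. They were the protein-coding genes whose symbol starts with Nduf, with Sdh and a letter from a to d, with Uqcr, with Cox and a digit from 4 to 8, or with Atp5, and the 13 mitochondrially encoded mRNAs whose symbol starts with mt-. This gave 110 of the 46517 genes in the table, 97 of them nuclear and 13 on the mitochondrial chromosome. The name rule used no measured value, but it was set with earlier results of these data known. Of the nuclear genes, 36 belong to complex I, 4 to complex II, 8 to complex III, 20 to complex IV and 16 to complex V, and the other 13 are assembly factors or accessory genes that carry the same prefixes (Ndufaf1 to Ndufaf8, Sdhaf1 to Sdhaf4 and Atp5s). Ndufa4 and Ndufa4l2 were placed with complex IV, where the Ndufa4 protein is found. The name rule leaves out subunits with other symbols, such as Cyc1 of complex III.

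Oxidative phosphorylation passes electrons from NADH and succinate through complexes I to IV of the inner mitochondrial membrane to oxygen, and complex V uses the proton gradient that builds up to make ATP. Most subunits are nuclear genes whose proteins are imported, while a few core subunits of complexes I, III, IV and V are translated inside the mitochondrion from mitochondrial DNA, so that each of these complexes needs both genomes. Complex II is made of nuclear subunits alone and is also an enzyme of the tricarboxylic acid cycle.

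All libraries were of wild-type C57BL/6 primary cells cultured in vitro, with no other treatment named in the labels. There were 3 libraries each, numbered 0, 1 and 2, of patrolling monocytes (pMos), intermediate monocytes (intMos) and conventional monocytes (cMos). Patrolling monocytes survey the vessel wall, and conventional monocytes are the inflammatory subset from which they arise. The series title places the pMos in cultures of bone marrow on OP9-DLL1, stromal cells made to display the Notch ligand Delta-like 1, and the series description names cMos in 2 places, 1 of which is pMos in the sample labels. The sources used here do not give the sort. Whether replicate libraries stem from different cultures or mice is not labelled, so the p-values measure only the spread between these libraries.

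The libraries held 18455116 to 29985684 estimated counts. The pMos and cMos labels matched their markers: of the list of patrolling markers 9 of 9 rose and of the conventional markers 7 of 7 fell in pMos against cMos. In intMos against cMos 7 of the 9 patrolling markers rose and 1 fell, and 7 of 7 conventional markers fell. In pMos against intMos 8 of the 9 patrolling markers rose, while 0 of the 7 conventional markers passed the test. Library 0 of each subset stood apart, with correlations of log2 CPM (counts scaled to library size) with its own subset between 0.951 and 0.975, against 0.986 to 0.99 between libraries 1 and 2. Stromal markers summed to 327.1 to 614.1 CPM in pMos, 353.0 to 1062.5 CPM in intMos and 13.1 to 25.5 CPM in cMos, and 12 of the 13 tested rose in pMos and in intMos against cMos, while 1 of the 15 listed was at 0 in every library. Cell cycle markers summed to 617.5 to 1014.2 CPM in pMos, 629.5 to 2592.7 CPM in intMos and 4166.0 to 5310.9 CPM in cMos. Of the 3 tested lymphoid markers none passed the test in pMos against cMos and 1 rose in intMos against cMos. Of 6 general myeloid markers 4 rose and 1 fell in pMos against cMos. Granulocyte and progenitor markers reached 13650.6 CPM in cMos library 0, against 544.5 to 4437.2 CPM in the other libraries.

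The nuclear oxidative phosphorylation genes together were lowest in pMos and highest in cMos. Their summed level was 7619, 8087 and 8025 CPM in pMos libraries 0, 1 and 2, at 7851, 9192 and 8410.3 CPM in the intMos libraries and at 11374, 8801 and 10514 CPM in the cMos libraries, where CPM is scaled with the TMM factors of edgeR. All cMos libraries lay above all pMos libraries, and the intMos libraries overlapped both. The 13 mitochondrial mRNAs summed to 16077, 23993 and 23270 CPM in the pMos libraries, to 22178, 22767 and 22099 CPM in intMos and to 22103, 24424 and 33335 CPM in cMos. For these the subsets overlapped, with pMos library 0 lowest and cMos library 2 highest of the 9. They made up 2.03% ± 0.41 of all counts in pMos, 2.27% ± 0.03 in intMos and 2.72% ± 0.55 in cMos (SD, n = 3 each). The ratio of mitochondrial mRNA counts to nuclear oxidative phosphorylation counts was 2.66 ± 0.48 in pMos, 2.64 ± 0.17 in intMos and 2.63 ± 0.63 in cMos, so the group means of this ratio lay far within the spread of the libraries.

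**Figure D1:**
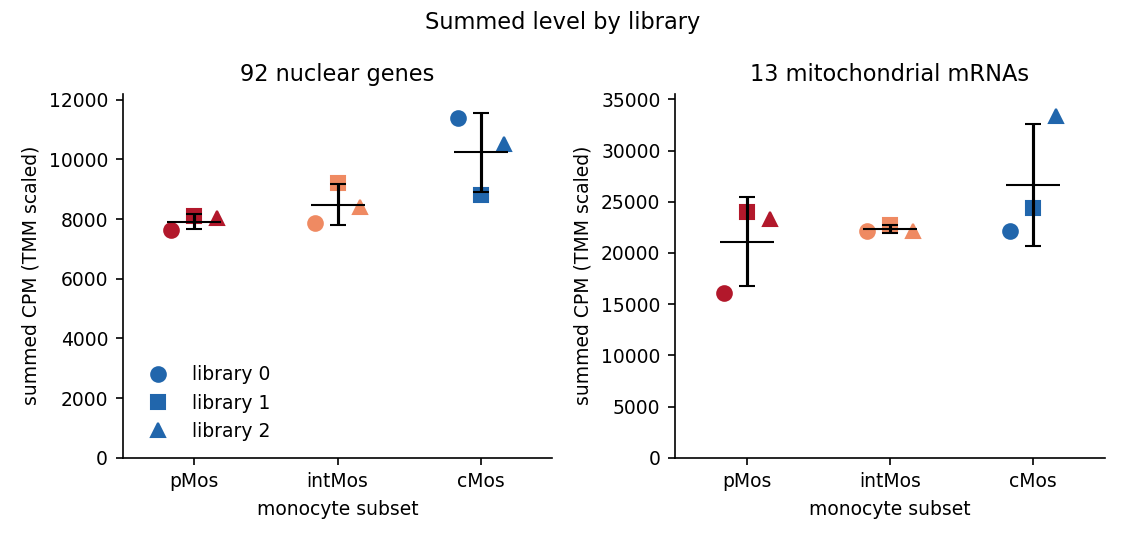
Summed CPM (TMM scaled) of the 92 tested nuclear genes, left, and of the 13 mitochondrial mRNAs, right, in each library of pMos, intMos and cMos. Circles, squares and triangles are libraries 0, 1 and 2 and black bars are the mean ± SD of 3 libraries. The nuclear sums of cMos (8801.4 to 11374.1) lie above those of pMos (7618.9 to 8086.9), while the mitochondrial sums overlap.

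Levels differ widely between subunits of a complex when set per kilobase of transcript. The length was the median over annotated transcripts of a gene, which need not be those expressed. It was 2413 bases for Ndufb2 and 382 bases for Ndufa6, so these levels and their ranking depend on the annotation. By the mean over all 9 libraries, the member with the highest level in complex I was Ndufa6, at 227 ± 19.7 in pMos, 197 ± 27.05 in intMos and 194 ± 22.9 in cMos (CPM per kilobase, mean ± SD, n = 3 each). In complex II Sdhb, the iron-sulfur subunit, was highest by its mean over all 9 libraries, at 96.6 ± 2.82 in pMos, 102 ± 6.83 in intMos and 118 ± 10.7 in cMos, while Sdhd was at 80.2 ± 9.13 in pMos, 105 ± 10.99 in intMos and 119 ± 14.8 in cMos and so had the higher mean in intMos and cMos. Uqcrh, the hinge protein of complex III, was at 332 ± 12.1 in pMos, 271 ± 28.02 in intMos and 250.5 ± 34.4 in cMos. Cox4i1, the widely expressed form of subunit IV of cytochrome c oxidase, was at 569 ± 25.7 in pMos, 589 ± 47.4 in intMos and 639 ± 80.6 in cMos, the highest of the 97 nuclear genes on this scale. Atp5b, the catalytic beta subunit of ATP synthase, was at 287 ± 17.1 in pMos, 351 ± 62.8 in intMos and 523 ± 125 in cMos. The highest assembly factor was Sdhaf2, which attaches the flavin to Sdha, at 25.04 ± 1.94 in pMos, 24.7 ± 2.74 in intMos and 20.1 ± 1.79 in cMos. Of these 6 genes, Atp5b fell and Uqcrh rose in pMos against cMos on the test below, and Ndufa6, Sdhb, Cox4i1 and Sdhaf2 did not pass it.

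Of the 110 genes, 105 had enough counts to be tested among 14059 genes, 92 nuclear and all 13 mitochondrial. The 5 left out were Cox4i2 at 0.11 to 0.94 CPM, Cox8b at 0 to 0.17 CPM, and Cox7b2, Cox8c and Ndufa4l2, each listed at 0 in all 9 libraries. Genes are called from edgeR's quasi-likelihood test where the p adjusted by Benjamini-Hochberg over the 14059 genes was under 0.05. In pMos against cMos, 39 of the 92 nuclear genes fell and 3 rose, and 50 did not pass the test. Over all genes tested in that comparison, 15.9% fell and 17.2% rose. The median log2 fold change of the nuclear genes was -0.39, against 0.03 for all genes, and 82 of the 92 values were negative. In 55 of the 92 every pMos library lay below every cMos library, a pattern that 23.5% of all genes showed.

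The count of nuclear genes that fell moved with single libraries. It was 14 without pMos library 0, 18 without pMos library 1, 17 without pMos library 2, 20 without cMos library 0 and 23 without cMos library 2, and the largest count on leaving out any of the 9 libraries was 46. The share of all genes called in these fits was not counted, so the counts do not show whether the drop was particular to these genes. The median log2 fold change ran from -0.516 to -0.321 in these fits. With libraries 1 and 2 alone 28 fell and 2 rose, 29 of these 30 were among the 42 called with all libraries, and the median was -0.27. In that fit 18% of all genes fell and 19.7% rose. The genes that kept their call on leaving out each of the 9 libraries in turn were Ndufa12, Ndufb6, Ndufc1, Uqcr11, Cox6a1, Cox6b2, Cox7a2l, Atp5b, Atp5o, Ndufaf6 and Sdhaf1. All 20 cell cycle markers fell in the same comparison, and their part in the result was not tested. Library 0 of cMos, far the highest in granulocyte and progenitor markers, was the highest of the 9 libraries in 51 of the 92 nuclear genes; the counts without it are given above. In bulk samples a change in the share of one cell type and a change in RNA per cell cannot be told apart.

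**Figure D2:**
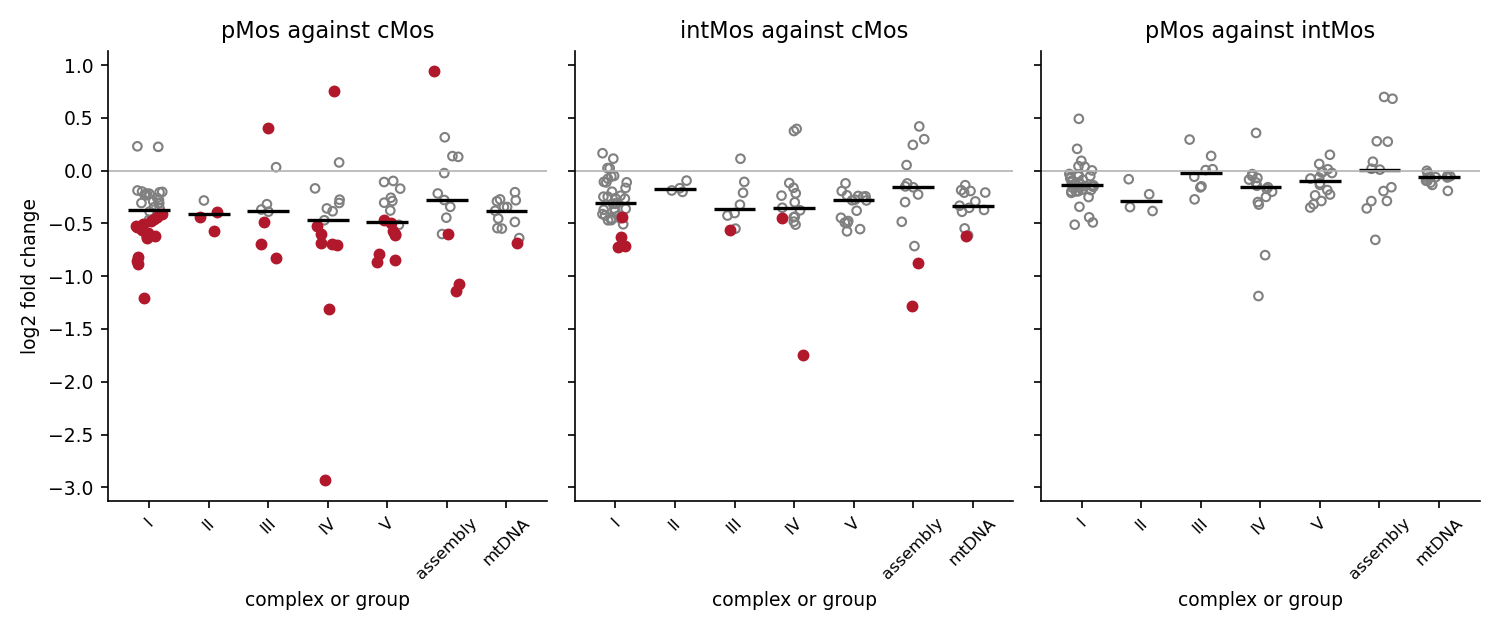
Log2 fold changes of the 105 tested genes in pMos against cMos, intMos against cMos and pMos against intMos, by complex for the nuclear genes and together for those of mitochondrial DNA (mtDNA). Each point is a gene, filled where the adjusted p was under 0.05, and black bars are medians, which lie between -0.278 and -0.485 in every group of the first panel.

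Complex I, which takes electrons from NADH, had 15 of 36 nuclear subunits lower in pMos than in cMos and none higher, with a median log2 fold change of -0.37. Over all genes 15.9% fell and 17.2% rose, and these shares are the background for the counts of each complex. Ndufa12 (ENSMUSG00000020022.15, chr10:94198720-94221443, GRCm38) is an accessory subunit related to the assembly factor Ndufaf2. It was at 12.1, 15.7 and 18.9 CPM in pMos libraries 0, 1 and 2, at 17.5, 23.004 and 24.96 CPM in the intMos libraries and at 41.5, 28.9 and 37.3 CPM in the cMos libraries. All cMos libraries lay above all others, and the fall in pMos was the steepest of the complex (log2 fold change -1.21, SE 0.22, adjusted p = 0.00312). Ndufb6, an accessory subunit of the membrane arm, was at 22.8, 23.6 and 22.9 CPM in pMos libraries 0, 1 and 2, at 22.9, 28.8 and 25.7 CPM in the intMos libraries and at 55.8, 31.9 and 40.3 CPM in the cMos libraries. Its pMos libraries lay within 1 CPM of each other and below every cMos library, of which library 0 was far the highest (log2 fold change -0.88, SE 0.20, adjusted p = 0.00886). Ndufc1, another accessory subunit, was at 12.98, 15.8 and 15.9 CPM in pMos libraries 0, 1 and 2, at 14.9, 16.1 and 20.1 CPM in the intMos libraries and at 32.3, 20.8 and 25.7 CPM in the cMos libraries, again with no overlap between pMos and cMos (log2 fold change -0.82, SE 0.20, adjusted p = 0.0119).

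Among the nuclear core subunits, which carry the flavin and the iron-sulfur clusters of complex I, Ndufv1, which binds NADH and flavin mononucleotide, and Ndufs7 fell. Ndufv1 was at 79.1, 75.4 and 69.6 CPM in the pMos libraries, against 136, 95.2 and 107 CPM in the cMos libraries, with no overlap (log2 fold change -0.59, SE 0.15, adjusted p = 0.0169). Ndufs7 was at 44.8, 35.5 and 33.3 CPM in the pMos libraries, against 64.6, 45.9 and 52.3 CPM in the cMos libraries; the highest pMos library, 0, was just below the lowest cMos library, 1 (log2 fold change -0.52, SE 0.17, adjusted p = 0.0396). The call of Ndufv1 was lost without pMos library 1 or pMos library 2, and that of Ndufs7 without cMos 0, cMos 2, intMos 1, intMos 2, pMos 1 or pMos 2. Ndufs1, Ndufs3, Ndufs8 and Ndufv2 did not pass the test, with log2 fold changes of -0.31, -0.21, -0.22 and -0.31.

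The other accessory subunits of complex I that fell were Ndufa5, Ndufab1 (the mitochondrial acyl carrier protein), Ndufs6, Ndufa9, Ndufs5, Ndufb8, Ndufb7, Ndufb5, Ndufa10 and Ndufb10. Their log2 fold changes ran from -0.85 for Ndufa5 to -0.41 for Ndufb10, with adjusted p-values of 0.0159 for Ndufab1 to 0.0359 for Ndufb10. Each of these 10 calls was lost on leaving out at least 1 library; those of Ndufb10 and Ndufab1, the extremes, were lost without cMos 0, cMos 2, intMos 2, pMos 0, pMos 1 or pMos 2 and without pMos library 2. Ndufa6 and Ndufb2 were the 2 nuclear genes of complex I with a positive value, 0.23 (adjusted p = 0.253) and 0.23 (adjusted p = 0.377). Ndufb2 was at 41.2, 32.9 and 28.9 CPM in pMos, 26.2, 20.3 and 26.8 CPM in intMos and 34.2, 25.7 and 28.3 CPM in cMos, and its pMos and cMos libraries overlapped.

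In complex II, succinate dehydrogenase, 3 of 4 subunits fell in pMos against cMos. All 4 lay lower in pMos with no overlap between these subsets, a pattern that 23.5% of all genes showed. Sdha, the flavin-bearing catalytic subunit, was at 228, 228 and 239 CPM in pMos libraries 0, 1 and 2, at 259, 288 and 265 CPM in the intMos libraries and at 326, 269 and 317 CPM in the cMos libraries. The pMos libraries lay close together and below all others, and the intMos libraries overlapped cMos (log2 fold change -0.39, SE 0.12, adjusted p = 0.0306 for pMos against cMos). Sdhd, a membrane anchor, was at 85.9, 107 and 104 CPM in pMos libraries 0, 1 and 2, at 128, 143 and 116 CPM in the intMos libraries and at 159, 126 and 156 CPM in the cMos libraries, with pMos below both other subsets (log2 fold change -0.57, SE 0.15, adjusted p = 0.0155). Sdhc, the other anchor, fell by 0.44 on the log2 scale (adjusted p = 0.0323), and Sdhb stood at -0.28 without passing (adjusted p = 0.0867). The calls of Sdha and Sdhc were each lost without cMos 0, cMos 2, intMos 2, pMos 0, pMos 1 or pMos 2, and that of Sdhd without pMos library 0.

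In complex III, which hands electrons from ubiquinol to cytochrome c, 3 of 8 subunits fell and 1 rose. Uqcr11, a small subunit, was at 36.9, 33.9 and 30.3 CPM in pMos libraries 0, 1 and 2, at 41.7, 37.6 and 42.9 CPM in the intMos libraries and at 75.3, 50.5 and 53.9 CPM in the cMos libraries. The 3 subsets did not overlap at all for this gene, with pMos lowest and cMos highest (log2 fold change -0.83, SE 0.17, adjusted p = 0.00566 for pMos against cMos). Uqcrq, another small subunit, was at 57.3, 51.7 and 47.9 CPM in the pMos libraries, against 116, 67.7 and 71.1 CPM in the cMos libraries; cMos library 0 was far above the other two (log2 fold change -0.70, SE 0.21, adjusted p = 0.0296). Uqcrc1, a core protein, also fell (log2 fold change -0.48, adjusted p = 0.0318). The calls were lost without cMos 0, pMos 0, pMos 1 or pMos 2 for Uqcrq and without cMos 0, intMos 2, pMos 0, pMos 1 or pMos 2 for Uqcrc1. Uqcrfs1, the Rieske iron-sulfur protein, stood at -0.39 (adjusted p = 0.0811), Uqcrb at -0.37, Uqcr10 at -0.32 and the core protein Uqcrc2 at 0.03, none of them past the test.

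Uqcrh (ENSMUSG00000063882.11, chr4:116066965-116075071), the hinge protein that lies next to cytochrome c1, went the other way. It was at 152, 163 and 157 CPM in pMos libraries 0, 1 and 2, at 118, 143 and 125 CPM in the intMos libraries and at 115, 105 and 137 CPM in the cMos libraries. Every pMos library lay above every library of the other subsets, and intMos and cMos overlapped (log2 fold change 0.41, SE 0.13, adjusted p = 0.0437). This call was lost without cMos 0, cMos 1, intMos 2, pMos 0, pMos 1 or pMos 2 and also when no filter on low counts was used.

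In complex IV, cytochrome c oxidase, 7 of the 15 tested nuclear genes fell and 1 rose in pMos against cMos. Cox6a1, the widely expressed form of subunit VIa, was at 97.1, 84.9 and 79.3 CPM in pMos libraries 0, 1 and 2, at 93.4, 108 and 109 CPM in the intMos libraries and at 160.4, 121 and 143 CPM in the cMos libraries. The pMos and cMos libraries did not overlap (log2 fold change -0.70, SE 0.14, adjusted p = 0.00553). Ndufa4, Cox7b, Cox7a2 and Cox5b fell by 0.52 to 0.70 on the log2 scale. Ndufa4 was at 58.9, 75.4 and 71.5 CPM in the pMos libraries, against 119.8, 91.3 and 119 CPM in the cMos libraries (adjusted p = 0.0182) and Cox7b at 53.4, 70.5 and 65.8 CPM in the pMos libraries, against 115, 83.1 and 109 CPM in the cMos libraries (adjusted p = 0.014). In both, the lowest cMos library was library 1. The calls were lost without cMos 0, cMos 2, pMos 0 or pMos 2 for Ndufa4, without pMos library 0 for Cox7b, without cMos 0, cMos 2, intMos 2, pMos 0, pMos 1 or pMos 2 for Cox7a2 and without pMos library 1 or pMos library 2 for Cox5b. Cox4i1 stood at -0.17, Cox5a at 0.08, Cox6b1 at -0.28, Cox6c at -0.31, Cox7c at -0.39 and Cox8a at -0.36, none past the test.

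Cox7a2l (ENSMUSG00000024248.12, chr17:83501918-83517330) is a relative of Cox7a2. It was the exception in this complex, at 398, 379 and 381 CPM in pMos libraries 0, 1 and 2, at 334, 317 and 254 CPM in the intMos libraries and at 190.3, 229 and 269 CPM in the cMos libraries. Every pMos library lay above every intMos library, and intMos library 2 overlapped cMos (log2 fold change 0.75, SE 0.16, adjusted p = 0.00642 for pMos against cMos). Its paralog Cox7a2 was at 45.7, 59.6 and 56.4 CPM in pMos libraries 0, 1 and 2, at 48.4, 68.8 and 63.2 CPM in the intMos libraries and at 97.02, 65.3 and 82.5 CPM in the cMos libraries, with pMos below cMos (log2 fold change -0.60, SE 0.19, adjusted p = 0.0382). The 2 genes thus moved in opposite directions between pMos and cMos, and Cox7a2l kept its call on leaving out each library.

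**Figure D3:**
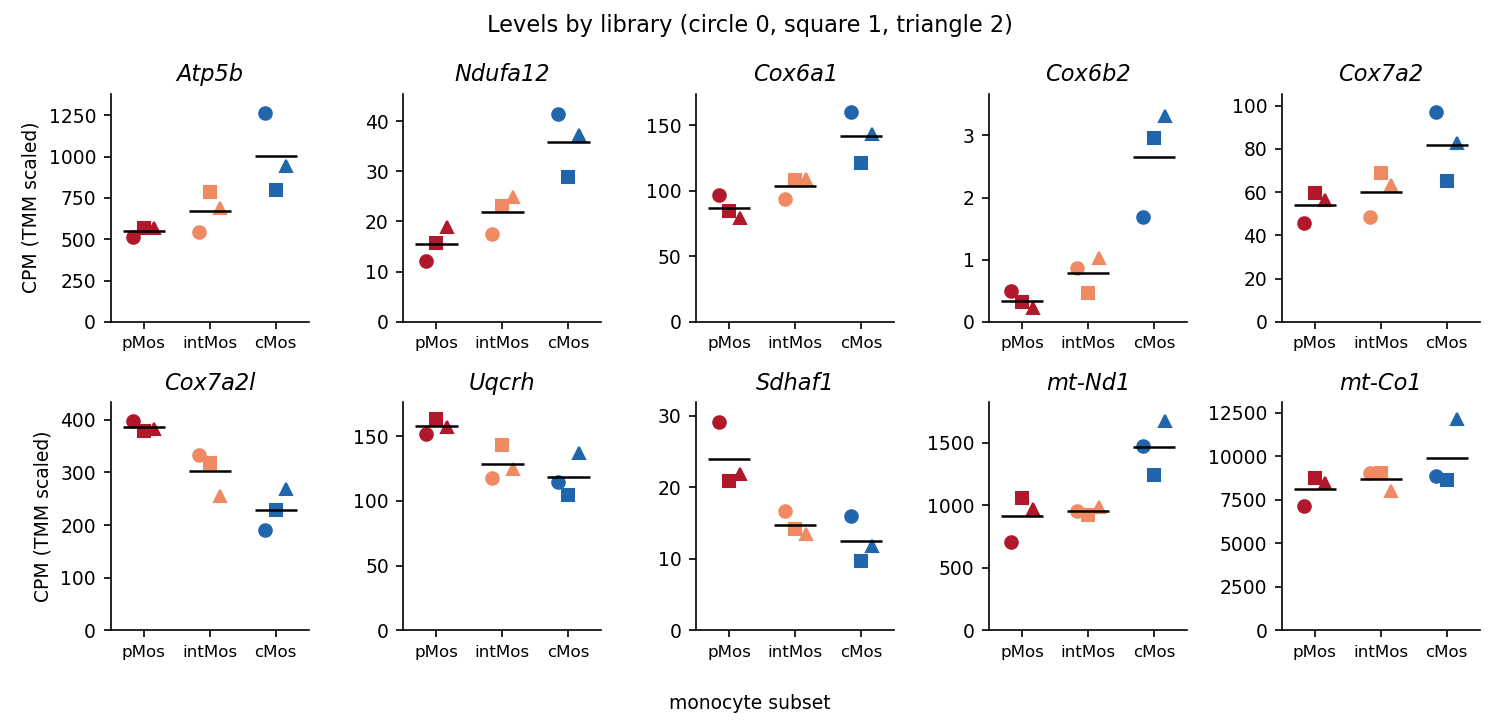
Levels (CPM, TMM scaled) of 10 genes in each library of pMos, intMos and cMos, with black bars at the mean of 3 libraries. Atp5b, Ndufa12, Cox6a1, Cox6b2, Cox7a2 and mt-Nd1 lie lower in pMos than in cMos, Cox7a2l, Uqcrh and Sdhaf1 lie higher, and the subsets overlap for mt-Co1.

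Complex IV has tissue forms of several subunits, and per kilobase the widely expressed form had the higher mean in each pair measured here. Cox6b1 averaged 273 ± 26.6 in pMos, 295 ± 35.8 in intMos and 330.4 ± 34.9 in cMos, and its testis form Cox6b2 0.787 ± 0.320 in pMos, 1.80 ± 0.661 in intMos and 6.10 ± 1.96 in cMos (CPM per kilobase, mean ± SD, n = 3 each). In CPM, Cox6b2 was at 0.493, 0.315 and 0.218 CPM in pMos libraries 0, 1 and 2, at 0.858, 0.467 and 1.03 CPM in the intMos libraries and at 1.69, 2.95 and 3.31 CPM in the cMos libraries. The cMos libraries lay above all others for Cox6b2, which had the largest fall of all 92 nuclear genes at a very low level (log2 fold change -2.93, SE 0.47, adjusted p = 0.00176). Cox7a1, the heart and muscle form, was at 0.370, 0.560 and 0.350 CPM in pMos libraries 0, 1 and 2, at 0.697, 0.722 and 0.829 CPM in the intMos libraries and at 1.12, 0.773 and 1.33 CPM in the cMos libraries, and it fell in pMos against cMos with no overlap (log2 fold change -1.31, SE 0.37, adjusted p = 0.0247), a call lost without cMos 0, cMos 2, pMos 0 or pMos 2. Cox6a2, the heart and muscle form of subunit VIa, was at 6.33, 1.05 and 0.831 CPM in pMos libraries 0, 1 and 2, at 5.47, 1.15 and 1.86 CPM in the intMos libraries and at 10.6, 0.457 and 0.324 CPM in the cMos libraries. In each subset library 0 held most of its counts, and the log2 fold change of pMos against cMos was -0.47 with all libraries, 2.79 without cMos library 0 and 1.27 with libraries 1 and 2 alone, none of them past the test. Cox6a1 averaged 153 ± 15.97 in pMos, 181 ± 15.3 in intMos and 248 ± 34.3 in cMos, and Cox6a2 4.02 ± 4.58 in pMos, 4.15 ± 3.41 in intMos and 5.57 ± 8.65 in cMos, in CPM per kilobase. Cox8a averaged 208 ± 30.3 in pMos, 230.3 ± 22.01 in intMos and 267 ± 61.2 in cMos on that scale, while its heart and muscle form Cox8b was too low to test and its testis form Cox8c was listed at 0.

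In complex V, ATP synthase, 8 of 16 subunits fell and none rose in pMos against cMos, with all 16 values negative and a median of -0.49. Atp5b (ENSMUSG00000025393.11, chr10:128083273-128090391) was at 513, 569 and 570.2 CPM in pMos libraries 0, 1 and 2, at 545, 785 and 687 CPM in the intMos libraries and at 1266, 798 and 940.3 CPM in the cMos libraries. The pMos libraries lay below every cMos library, and intMos library 1 came close to cMos library 1 (log2 fold change -0.86, SE 0.19, adjusted p = 0.00882). Atp5a1, the alpha subunit that forms the catalytic head with Atp5b, was at 672, 686 and 746 CPM in the pMos libraries, against 1135, 891 and 948 CPM in the cMos libraries (log2 fold change -0.50, SE 0.14, adjusted p = 0.0206). Atp5o, which ties the head to the stalk, was at 74.3, 96.9 and 86.4 CPM in the pMos libraries, against 177, 126 and 158 CPM in the cMos libraries (log2 fold change -0.84, SE 0.19, adjusted p = 0.00954). In these 3 genes the highest pMos library lay below the lowest cMos library.

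The rotor ring of ATP synthase is built from the c subunit, whose identical mature protein is made from Atp5g1, Atp5g2 and Atp5g3. All 3 genes fell in pMos. Atp5g1 was at 56.98, 56.9 and 46.6 CPM in pMos libraries 0, 1 and 2, at 64.1, 61.1 and 63.7 CPM in the intMos libraries and at 137, 70.3 and 70.3 CPM in the cMos libraries. Its cMos library 0 was far above the rest, and without it the log2 fold change was -0.40, against -0.79 with all libraries (SE 0.25, adjusted p = 0.0348). Atp5g2 fell by 0.47 (adjusted p = 0.0178) and Atp5g3 by 0.61 (adjusted p = 0.0212) on the log2 scale. The calls were lost without intMos 2, pMos 0, pMos 1 or pMos 2 for Atp5g1, without pMos library 1 or pMos library 2 for Atp5g2 and without pMos 0, pMos 1 or pMos 2 for Atp5g3. Atp5f1 and Atp5j of the stalk also fell (-0.60 and -0.57), with calls lost without cMos 0, cMos 2, pMos 0 or pMos 1 for Atp5f1 and without cMos 0, cMos 2, intMos 2, pMos 0, pMos 1 or pMos 2 for Atp5j; the call of Atp5a1 was lost without cMos 0, pMos 0 or pMos 1. The gamma, delta and epsilon subunits of the central stalk, Atp5c1, Atp5d and Atp5e, stood at -0.29, -0.26 and -0.11 without passing the test.

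Of the 13 assembly factors and accessory genes, 3 fell (23.1%) and 1 rose in pMos against cMos, where 15.9% of all genes fell and 17.2% rose. In 4 of the 13 (30.8%) every pMos library lay below every cMos library, against 23.5% of all genes. Most of this group thus showed no called change. Ndufaf2, the assembly factor related to Ndufa12, was at 2.01, 3.96 and 3.85 CPM in pMos libraries 0, 1 and 2, at 4.18, 6.92 and 4.38 CPM in the intMos libraries and at 8.03, 6.22 and 7.42 CPM in the cMos libraries. Its pMos libraries lay below all others (log2 fold change -1.14, SE 0.32, adjusted p = 0.0223, lost without cMos 0, cMos 2 or pMos 0). Ndufaf6, needed early in the assembly of complex I, was at 3.57, 2.63 and 3.06 CPM in pMos libraries 0, 1 and 2, at 3.38, 4.16 and 4.31 CPM in the intMos libraries and at 8.17, 5.62 and 5.69 CPM in the cMos libraries, with no overlap between pMos and cMos (log2 fold change -1.07, SE 0.25, adjusted p = 0.0101). Ndufaf4 fell by 0.60 (adjusted p = 0.0274), a call lost without cMos 0, cMos 2, pMos 0 or pMos 1. Sdhaf1 (ENSMUSG00000074211.4, chr7:30321406-30323895), which helps to insert iron-sulfur clusters into Sdhb, was at 29.1, 20.9 and 21.9 CPM in pMos libraries 0, 1 and 2, at 16.7, 14.2 and 13.5 CPM in the intMos libraries and at 16.01, 9.63 and 11.8 CPM in the cMos libraries. Every pMos library lay above all others, and the rise was the largest of the 92 nuclear genes (log2 fold change 0.94, SE 0.22, adjusted p = 0.0103). Sdhaf2 had no overlap either but did not pass the test (log2 fold change 0.32, SE 0.13, adjusted p = 0.0958). Ndufaf1, Ndufaf3, Ndufaf5, Ndufaf7, Ndufaf8, Sdhaf3, Sdhaf4 and Atp5s did not pass it, with log2 fold changes of -0.60 to 0.14.

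**Figure D4:**
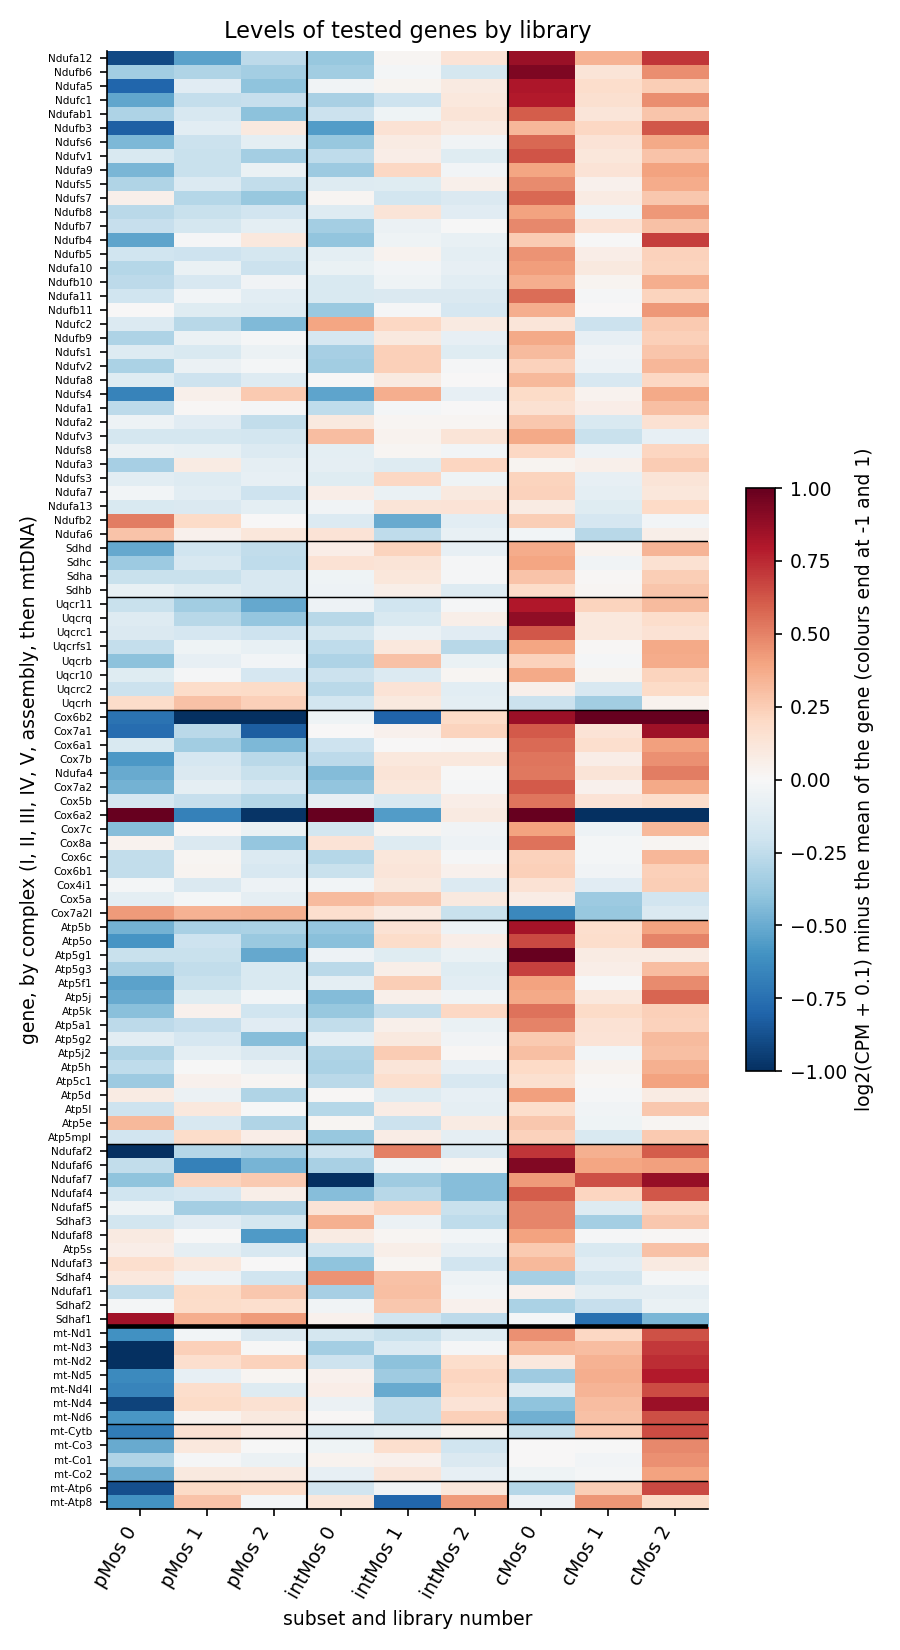
Level of tested genes in each library, on a log2 scale relative to the mean of the gene over all 9 libraries. Columns are the libraries of pMos, intMos and cMos, rows are grouped by complex and the 13 mitochondrial mRNAs are at the bottom. Most tested nuclear genes were highest in cMos library 0 (51 of 92) or cMos library 2 (29 of 92), and mitochondrial rows are lowest in pMos library 0 (12 of 13) and highest in cMos library 2 (12 of 13).

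Promoters are shown for nuclear genes that changed in opposite directions in pMos against cMos. Of the 97 nuclear genes, 80 matched an entry of the RefSeq promoter table (GRCm38.p6), and the 250 bases before the annotated start were searched on both strands for 4 motifs of factors known for respiratory chain genes. The NRF1 motif GCGCATGC was in 9 of the 80 (11.2%) and in 2.32% of 27025 promoters in the table, 1 per gene. The GABPA (NRF-2) motif CCGGAAG was in 15 of 80 (18.8%) and in 7.05% of all promoters. The ERR-alpha motif TCAAGGTCA was in 1 of 80 (1.25%) and in 0.366% of all, and the YY1 motif AAGATGGCG was in 0 of 80 and in 0.607% of all. Among genes that fell in pMos against cMos the GABPA motif was in 5 of 35 (14.3%), among those not called in 9 of 40 (22.5%) and among those that rose in 1 of 3. The NRF1 motif was in 3 of the 35 that fell (8.57%), 6 of the 40 not called (15.0%) and 0 of the 3 that rose. A match is a description of letters and not of binding. The first start listed in RefSeq was used, and it can differ from the ends of the gene given with its values. The sequences below run 5′ to 3′ on the strand of the gene and end 1 base before the start, and capitals mark the NRF1 and GABPA motifs. Cox6a1 (minus strand, chr5:115348959-115349208) fell and holds the NRF1 motif on both strands, at overlapping positions from -162 and -160, and the GABPA motif from -16. Uqcr11 (minus strand, chr10:80406822-80407071) fell and holds the GABPA motif from -66. Atp5b (plus strand, chr10:128083057-128083306) fell and holds none of the 4. Uqcrh (minus strand, chr4:116075071-116075320) rose and holds the GABPA motif from -10, and Cox7a2l (minus strand, chr17:83514334-83514583) rose and holds none.
Cox6a1 promoter: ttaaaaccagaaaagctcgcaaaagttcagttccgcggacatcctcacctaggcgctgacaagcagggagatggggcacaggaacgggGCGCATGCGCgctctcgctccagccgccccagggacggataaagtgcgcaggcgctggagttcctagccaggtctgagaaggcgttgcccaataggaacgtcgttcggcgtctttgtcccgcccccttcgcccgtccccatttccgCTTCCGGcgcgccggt
Uqcr11 promoter: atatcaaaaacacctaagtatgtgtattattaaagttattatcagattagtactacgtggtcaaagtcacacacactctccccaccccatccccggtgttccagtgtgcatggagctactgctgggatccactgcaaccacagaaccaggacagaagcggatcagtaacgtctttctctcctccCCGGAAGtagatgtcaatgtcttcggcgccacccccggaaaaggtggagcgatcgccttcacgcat
Atp5b promoter: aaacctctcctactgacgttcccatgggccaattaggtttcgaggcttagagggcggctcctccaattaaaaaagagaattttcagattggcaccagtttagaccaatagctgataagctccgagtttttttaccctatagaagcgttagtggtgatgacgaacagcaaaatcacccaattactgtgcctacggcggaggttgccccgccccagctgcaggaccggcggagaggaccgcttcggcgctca
Uqcrh promoter: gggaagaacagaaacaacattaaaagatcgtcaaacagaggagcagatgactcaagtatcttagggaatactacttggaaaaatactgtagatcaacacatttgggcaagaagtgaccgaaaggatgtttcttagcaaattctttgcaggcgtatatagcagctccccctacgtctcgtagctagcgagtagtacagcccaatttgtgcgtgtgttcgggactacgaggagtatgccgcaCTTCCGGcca
Cox7a2l promoter: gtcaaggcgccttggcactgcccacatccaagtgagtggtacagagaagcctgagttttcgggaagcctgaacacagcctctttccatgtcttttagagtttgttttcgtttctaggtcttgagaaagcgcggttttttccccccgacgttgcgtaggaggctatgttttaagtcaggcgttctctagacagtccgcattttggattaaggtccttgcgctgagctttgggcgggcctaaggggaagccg

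The 13 mitochondrial mRNAs, counted here as 1 per gene although some of the genes overlap, code for 7 subunits of complex I, 1 of complex III, 3 of complex IV and 2 of complex V. In pMos against cMos 1 of them fell and none rose, while 15.9% of all genes fell and 17.2% rose. At an unadjusted p under 0.05, 1 was lower and 0 higher, and DESeq2 called 1 lower and 0 higher, where it called 18.6% of all genes lower and 18.9% higher. All 13 log2 fold changes were negative, with a median of -0.38. The median was -0.15 without cMos library 2, -0.16 without pMos library 0 and -0.60 without cMos library 0. In 2 of the 13 genes, mt-Nd1 and mt-Nd3, every pMos library lay below every cMos library, against 23.5% of all genes. The median coefficient of variation between libraries of a subset was 27.9% in pMos, 13% in intMos and 22.3% in cMos for these genes. It was 10.1% in pMos, 11.6% in intMos and 15.2% in cMos for the nuclear genes.

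The gene that fell was mt-Nd1 (ENSMUSG00000064341.1, chrM:2751-3707, GRCm38), a membrane subunit of complex I next to the ubiquinone site. It was at 708, 1056 and 972 CPM in pMos libraries 0, 1 and 2, at 953, 921 and 982 CPM in the intMos libraries and at 1476, 1239 and 1671 CPM in the cMos libraries. All cMos libraries lay above all others, and pMos and intMos overlapped. The fall held on leaving out each of the 9 libraries (log2 fold change -0.68, SE 0.17, adjusted p = 0.0145 for pMos against cMos), with adjusted p-values of 0.0138 to 0.0469. In intMos against cMos mt-Nd1 also fell (log2 fold change -0.62, SE 0.17, adjusted p = 0.0286), a call lost without cMos 0, cMos 2, intMos 0, intMos 1 or intMos 2.

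The other mitochondrial mRNAs of complex I did not pass the test in pMos against cMos. mt-Nd3 was at 67.6, 169 and 143 CPM in pMos libraries 0, 1 and 2, at 113, 131 and 143 CPM in the intMos libraries and at 180.0, 178 and 234 CPM in the cMos libraries (adjusted p = 0.125). mt-Nd4, a proton-pumping subunit, was at 596, 1291 and 1258 CPM in pMos libraries 0, 1 and 2, at 1087, 954 and 1247 CPM in the intMos libraries and at 857, 1403 and 2048 CPM in the cMos libraries (adjusted p = 0.354). Its pMos library 0 was the lowest of the 9 and cMos library 2 the highest, and cMos library 0 lay below all intMos libraries. mt-Nd5, another proton-pumping subunit, was at 520.1, 762 and 821 CPM in pMos libraries 0, 1 and 2, at 834, 633 and 936 CPM in the intMos libraries and at 631, 1039 and 1398 CPM in the cMos libraries (adjusted p = 0.183). It passed the test in pMos against cMos without cMos library 0, where the log2 fold change was -0.80 and the adjusted p 0.0408, and with libraries 1 and 2 alone. mt-Nd2, mt-Nd4l and mt-Nd6 stood at -0.55, -0.49 and -0.34.

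mt-Cytb, the cytochrome b of complex III, was at 1102, 1986 and 1885 CPM in pMos libraries 0, 1 and 2, at 1634, 1675 and 1831 CPM in the intMos libraries and at 1531, 2133 and 2808 CPM in the cMos libraries (adjusted p = 0.29). The catalytic core of complex IV is made of mt-Co1, mt-Co2 and mt-Co3. mt-Co1, the most abundant mRNA per kilobase of the 110 genes, was at 7162, 8744 and 8490.0 CPM in pMos libraries 0, 1 and 2, at 9019, 9065 and 7983 CPM in the intMos libraries and at 8858, 8659 and 12118 CPM in the cMos libraries (adjusted p = 0.198). Apart from cMos library 2 and pMos library 0, its libraries lay between 7983 and 9065 CPM in all subsets. mt-Co2 was at 2157 to 3246 CPM in pMos, 2868 to 3302 CPM in intMos and 2952 to 4009 CPM in cMos, and mt-Co3 at 1909 to 2909 CPM in pMos, 2361 to 3052 CPM in intMos and 2703 to 3779 CPM in cMos. mt-Atp6, the subunit a of ATP synthase beside its c-ring, was at 1274, 2681 and 2661 CPM in pMos libraries 0, 1 and 2, at 2049, 2285 and 2530.1 CPM in the intMos libraries and at 1926, 2771 and 3705 CPM in the cMos libraries, with all subsets overlapping (adjusted p = 0.419).

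mt-Atp8 and mt-Atp6 overlap on the mitochondrial chromosome, so reads in the shared stretch belong to both. Their annotated overlap is 43 bases at chrM:7927-7969 (GRCm38, plus strand), against 204 bases of the mt-Atp8 gene, and is printed with the start codon of mt-Atp6 in capitals to show the stretch.
mt-Atp8 and mt-Atp6 overlap: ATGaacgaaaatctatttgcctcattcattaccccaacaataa
mt-Atp8 was at 137, 253 and 205 CPM in pMos libraries 0, 1 and 2, at 225, 119.9 and 278 CPM in the intMos libraries and at 200.5, 281 and 237 CPM in the cMos libraries, and it was the 1 mitochondrial gene that was lowest in intMos library 1 and highest in cMos library 1. mt-Nd4l and mt-Nd4 share 7 bases.

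In intMos against cMos, 9 of the 92 nuclear genes fell and none rose, at a background of 10.4% of all genes falling and 14.0% rising, so the share that fell (9.78%) was near the background. At an unadjusted p under 0.05, 34 were lower and 3 higher, and DESeq2 called 18 lower and 1 higher, where it called 14.3% of all genes lower and 16.2% higher. The median log2 fold change was -0.28, against -0.01 for all genes, with 81 of 92 values negative. In 33 genes every intMos library lay below every cMos library, a pattern of 20.1% of all genes. The count that fell was 3 without cMos library 0, 19 without cMos library 1, 4 without cMos library 2, 3 without intMos library 0, 5 without intMos library 1, 4 without intMos library 2, 4 without pMos library 1 and 5 without pMos library 2. For these fits, too, the share of all genes called was not counted. On leaving out each library the median ran from -0.386 to -0.217. With libraries 1 and 2 alone 3 fell and 2 rose, where 11.9% of all genes fell and 15.8% rose. Of the 20 cell cycle markers, 8 fell in this comparison, and their part in the result was not tested.

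The genes that fell in intMos were Ndufa12, Ndufb6, Ndufb7, Ndufc1, Uqcr11, Cox6a1, Cox6b2, Ndufaf4 and Ndufaf7. Ndufaf7, a methyltransferase needed for the assembly of complex I, was at 19.1, 29.3 and 30.2 CPM in pMos libraries 0, 1 and 2, at 10.6, 19.7 and 18.7 CPM in the intMos libraries and at 33.8, 39.4 and 46.1 CPM in the cMos libraries. All intMos libraries lay below all cMos libraries, and the pMos libraries lay between, overlapping intMos (log2 fold change -1.28, SE 0.27, adjusted p = 0.00899 for intMos against cMos and log2 fold change -0.60, SE 0.26, adjusted p = 0.111 for pMos against cMos). Ndufaf4, an assembly factor of complex I, was at 8.75, 8.93 and 10.4 CPM in pMos libraries 0, 1 and 2, at 7.45, 8.28 and 7.46 CPM in the intMos libraries and at 15.3, 11.7 and 15.6 CPM in the cMos libraries, with the intMos libraries below all others (log2 fold change -0.88, SE 0.18, adjusted p = 0.00778 for intMos against cMos). These 2 kept their call on leaving out each library. Ndufb6 and Ndufa12 both fell by 0.72 in intMos (adjusted p = 0.0273 and 0.0391), with calls lost without cMos 0, intMos 0 or intMos 2 for Ndufb6 and without cMos 0, cMos 2, intMos 0, intMos 1, intMos 2 or pMos 1 for Ndufa12. Cox6b2 fell by 1.75 (adjusted p = 0.0196, lost without cMos library 2 or intMos library 1). Ndufc1, Uqcr11, Cox6a1 and Ndufb7 fell by 0.44 to 0.62, each with an adjusted p of 0.04 to 0.046 and a call lost in 6 to 8 of the 9 fits without a library.

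The comparisons of pMos and of intMos with cMos share the cMos libraries, so their values are not independent. For Atp5b the log2 fold change was -0.86 in pMos and -0.58 in intMos, for Uqcr11 -0.83 in pMos and -0.56 in intMos, and for Cox7a2l 0.75 in pMos and 0.40 in intMos. For Sdhd it was -0.57 in pMos and -0.19 in intMos. Among all 92 nuclear genes, 8 were called lower in both comparisons, 31 in pMos alone and Ndufaf7 in intMos alone. A call in 1 of them does not show a difference between pMos and intMos, which was tested directly. By group means, 66 of the 92 nuclear genes and all 13 mitochondrial mRNAs had the order pMos below intMos below cMos. The share of all genes with this order was not counted, and no gene of either set was called between pMos and intMos. By the range of the libraries, intMos lay wholly below cMos in 33 of the 92, a pattern of 20.1% of all genes. The pMos libraries lay wholly below intMos in 20 of the 92, a pattern of 12.9% of all genes.

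In pMos against intMos, edgeR called 0 of the 92 nuclear genes and 0 of the 13 mitochondrial mRNAs, where 3.29% of all genes rose and 1.69% fell. At an unadjusted p under 0.05, 4 nuclear genes were higher and 5 lower and 0 mitochondrial mRNAs were past it in either direction, and DESeq2 called 1 higher (Sdhaf1) and 1 lower (Ndufc2), where it called 5.48% of all genes higher and 4.6% lower. The median log2 fold change was -0.13 for the nuclear genes and -0.07 for the mitochondrial mRNAs, against -0.02 for all genes. In 20 nuclear genes every pMos library lay below every intMos library, a pattern of 12.9% of all genes. Same-numbered libraries of these 2 subsets deviated from their group means in the same direction, with correlations of 0.588, 0.30 and 0.274 for numbers 0, 1 and 2, but so did pMos library 2 with intMos library 1 (0.403) and pMos library 1 with intMos library 2 (0.279). The values set library 0 apart and do not tell libraries 1 and 2 apart by number. With the replicate number as a block 2 nuclear genes rose, Sdhaf1 and Ndufaf7, and none fell, where 3.61% of all genes rose and 2.34% fell. With the block and these 2 subsets alone, 3 of the 92 rose and 7 fell, where 9.13% of all genes rose and 9.99% fell, so neither share lay above the background.

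Ndufc2, a membrane arm subunit of complex I, was at 60.3, 54.8 and 48.7 CPM in pMos, 87.1, 76.3 and 70.4 CPM in intMos and 72.1, 57.1 and 79.3 CPM in cMos, with every pMos library below every intMos library and cMos overlapping both (log2 fold change -0.51, SE 0.16, adjusted p = 0.105 for pMos against intMos). Sdhaf1 stood at 0.70 (SE 0.22, adjusted p = 0.114) and Ndufaf7 at 0.68 (SE 0.27, adjusted p = 0.204). Cox5a, a matrix-facing subunit of complex IV, was at 128, 135 and 129 CPM in pMos, 170.2, 165 and 146 CPM in intMos and 145, 107 and 120.2 CPM in cMos, so that the intMos libraries were above all pMos and cMos libraries (log2 fold change -0.30, SE 0.14, adjusted p = 0.28 for pMos against intMos and log2 fold change 0.375, SE 0.14, adjusted p = 0.0735 for intMos against cMos). In intMos against cMos it was called higher with upper quartile scaling, the filter of 1 CPM in 3 libraries and DESeq2. That call was also made without cMos library 0 and with libraries 1 and 2 alone.

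In intMos against cMos 1 mitochondrial mRNA, mt-Nd1, fell and none rose, at backgrounds of 10.4% and 14.0%. All 13 values were negative, with a median of -0.33, which was -0.06 without cMos library 2 and -0.53 without cMos library 0. No mitochondrial mRNA was called without cMos library 0, without cMos library 2 or without any single intMos library, and 2 were called without pMos library 0. For these fits the share of all genes called was not counted. With libraries 1 and 2 alone 4 fell, mt-Nd1, mt-Nd3, mt-Nd4 and mt-Cytb, where 11.9% of all genes fell and 15.8% rose.

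Related mitochondrial genes outside the name rule were taken from lists, whose counts stand beside the 15.9% of all genes that fell and the 17.2% that rose in pMos against cMos. Of 23 genes of the tricarboxylic acid cycle and its entry, 3 rose and 11 fell in pMos against cMos, with a median of -0.40. Idh2, the mitochondrial isocitrate dehydrogenase that uses NADP, was at 69.1, 46.1 and 41.5 CPM in the pMos libraries, against 217, 117 and 134 CPM in the cMos libraries, with no overlap (log2 fold change -1.58, SE 0.27, adjusted p = 0.0022). Pdk4, a kinase that switches off pyruvate dehydrogenase, was at 1.52, 1.93 and 2.62 CPM in the pMos libraries, against 0.216, 0.211 and 0.108 CPM in the cMos libraries, without overlap (log2 fold change 3.47, SE 0.44, adjusted p = 0.00058), and its low cMos counts leave the size of the rise uncertain. Of 22 genes of electron carriers and adenine nucleotide exchange, 1 rose and 6 fell, with a median of -0.36. Coq8a, an atypical kinase of coenzyme Q synthesis, was at 19.4, 13.8 and 13.6 CPM in the pMos libraries, against 4.89, 7.49 and 6.30 CPM in the cMos libraries (log2 fold change 1.32, SE 0.24, adjusted p = 0.00308), and Coq7, a hydroxylase of the same pathway, at 5.34, 6.37 and 6.73 CPM in the pMos libraries, against 18.6, 11.2 and 14.7 CPM in the cMos libraries (log2 fold change -1.27, SE 0.22, adjusted p = 0.00256). The 2 coenzyme Q genes changed in opposite directions, each with no overlap.

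Of 36 assembly factors with other symbols, 1 rose and 3 fell in pMos against cMos, with a median of -0.19, so both shares lay below those of all genes. Bcs1l, which inserts the Rieske protein into complex III, fell by 0.76 (adjusted p = 0.0224), and Tmem186, an assembly factor of complex I, by 0.66 (adjusted p = 0.0208). Of 31 tested genes of mitochondrial transcription, replication and translation, none rose and 6 fell, with a median of -0.18. Polg, the mitochondrial DNA polymerase, was at 66.02, 58.99 and 61.4 CPM in the pMos libraries, against 121, 111 and 93.7 CPM in the cMos libraries (log2 fold change -0.81, SE 0.15, adjusted p = 0.00361), and Tsfm, a mitochondrial elongation factor, at 12.9, 11.8 and 12.5 CPM in the pMos libraries, against 28.2, 17.02 and 20.8 CPM in the cMos libraries (log2 fold change -0.82, SE 0.19, adjusted p = 0.0104). In both genes all pMos libraries lay below all cMos libraries. Of 14 tested regulators of mitochondrial biogenesis 2 rose and 1 fell, with a median of -0.20. Nrf1 was the 1 that fell, at 41.9, 38.9 and 35.8 CPM in pMos and 59.9, 54.7 and 54.9 CPM in cMos. Its libraries did not overlap between these subsets (log2 fold change -0.54, SE 0.13, adjusted p = 0.0131). Hif1a, the oxygen-regulated transcription factor, was at 135, 162 and 166 CPM in the pMos libraries, against 75.8, 77.7 and 81.2 CPM in the cMos libraries (log2 fold change 0.98, SE 0.12, adjusted p = 0.000483), and Esrra, the gene of ERR-alpha, at 67.004, 48.04 and 46.1 CPM in the pMos libraries, against 35.95, 38.04 and 29.9 CPM in the cMos libraries (log2 fold change 0.63, SE 0.21, adjusted p = 0.0406). Both were higher in every pMos library than in every cMos library.

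Near-identical copies limit the counts of some genes. The processed pseudogene Ndufb4c on chromosome 15 is identical to Ndufb4 (on chromosome 16) over all its 390 bases and held 4996.2 estimated counts over the 9 libraries, against 2617.7 for Ndufb4. Its 120 bases at chr15:73809777-73809896 (GRCm38, minus strand) are printed to show a stretch in which reads of both rows cannot be told apart, with the start codon in capitals.
Ndufb4c, first bases: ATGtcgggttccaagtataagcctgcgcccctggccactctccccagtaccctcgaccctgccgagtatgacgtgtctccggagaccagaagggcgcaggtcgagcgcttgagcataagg
Ndufb4 was at 7.48, 10.7 and 11.6 CPM in pMos libraries 0, 1 and 2, at 8.20, 10.5 and 10.3 CPM in the intMos libraries and at 12.9, 10.8 and 17.6 CPM in the cMos libraries, and its level is uncertain by the share given to the copy. Gm10175, a copy of Atp5g2, held 48.0% as many counts as the gene, and with the copies added the log2 fold change of Atp5g2 in pMos against cMos was -0.45, against -0.47 without them. Copies of mitochondrial genes on chromosome 1 held 5.96% as many counts as mt-Co2 (Gm28661), 4.46% as mt-Atp6 (Gm10925) and 4.22% as mt-Co1 (Gm29216). Adding the counts of all near-identical copies to their genes left the same 42 nuclear genes called in pMos against cMos.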

How the data were processed

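Per the labels' protocols, extraction used RNAzol and library preparation a stranded NEBNext Ultra II kit for mRNA. The authors deposited estimated counts by gene; kallisto 0.46.1 and mm10 are named in the submitters' processing notes. The sources used here do not give the annotation, the summing over transcripts or the strand setting, so counts of overlapping and antisense genes are uncertain. Of 46517 gene IDs, 46005 matched GENCODE M21 (GRCm38), which gave symbols, biotypes and positions counted from 1; 24 mitochondrial rRNA and tRNA rows were listed at 0.

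Counts were rounded, filtered with filterByExpr, scaled by TMM and fitted with the subset as the term over all 9 libraries in edgeR 4.0.16 (R 4.3.3), a robust quasi-likelihood F test, two-sided, with Benjamini-Hochberg adjustment over 14059 genes. The steps were tested on simulated data. CPM per kilobase used the median length of the basic transcripts of each gene. Copies were found with blastn against GENCODE M21 transcripts (pseudogenes with at least 95% identity over at least 150 bases and 50% of their length). Depth was 18455116 to 29985684 estimated counts, and precision was judged from the spread of 3 libraries.

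The alternatives were RLE and upper quartile scaling, library sizes without mitochondrial mRNA, no filter, a filter of 1 CPM in 3 libraries, DESeq2 1.42.0, a replicate block, leaving out each library and libraries 1 and 2 alone; adding copies, and the block on pMos and intMos alone, were added after seeing the data. Deviations of same-numbered libraries from their group means correlated at 0.588, 0.30 and 0.274 between pMos and intMos. However, 2 pairs of different numbers reached 0.403 and 0.279. Between pMos and cMos the deviations of same-numbered libraries correlated at 0.179, -0.016 and 0.23, and between intMos and cMos at 0.066, -0.143 and -0.069. The main test treated no comparison as paired, and the replicate block was used only in the alternatives.

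The members, lists and tests were chosen with earlier results of these data known. Genes named are the 13 mitochondrial mRNAs, the most abundant member per kilobase of each group, the 5 largest rises and falls among called nuclear genes, the paralog sets and the 2 largest called changes of each other list; other members are named to account for those called or to show a pattern, after their values were seen. 1 member is counted but not reported by name here.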

Additional observations from a re-analysis of the deposited data

Results flagged for a closer look

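Counts were assigned to rows outside the genes tested here. The Ndufb4 copy Ndufb4c held 4996.2 estimated counts over the 9 libraries, the Atp5g2 copy Gm10175 held 11948.2 and the mt-Co2 copy Gm28661 held 42606.6. Each is over a count of 0, but reads of identical stretches cannot be told apart, so the values are the split made in counting and no tested signal of the copies. Ndufb4c was at 17.7, 20.3 and 20.2 CPM in the pMos libraries, 19.7, 19.4 and 20.1 CPM in the intMos libraries and 30.2, 20.5 and 24.1 CPM in the cMos libraries. Gm28661 ran from 52.3 to 548.2 CPM, with its highest value in cMos library 2, where mt-Co2 was also highest.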

How the results depend on the processing

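In pMos against cMos, the counts of nuclear genes stayed within 1.5 times of the 39 lower and 3 higher under each scaling, filter and tool tried, and all 42 calls were shared with RLE scaling, upper quartile scaling, library sizes without mitochondrial mRNA and DESeq2. Leaving out each library gave 14 to 46 lower nuclear genes and 2 to 3 higher, 1 to 2 lower mitochondrial mRNAs, and with libraries 1 and 2 alone 2 mitochondrial mRNAs were lower. In intMos against cMos, 1 nuclear gene was higher with upper quartile scaling, 1 with the filter of 1 CPM, 1 with DESeq2 and 2 with libraries 1 and 2 alone, against 0. The lower nuclear genes numbered 5 with upper quartile scaling, 3 with libraries 1 and 2 alone and 18 with DESeq2, against 9, and 3 to 19 on leaving out each library, which gave 0 to 1 higher; lower mitochondrial mRNAs numbered 0 to 2 on leaving out each library and 4 with libraries 1 and 2 alone. In pMos against intMos the nuclear counts, 0 in the test as described, were 1 higher and 1 lower with DESeq2, 2 higher and 1 lower with libraries 1 and 2 alone and 0 to 1 higher on leaving out each library. With libraries 1 and 2 alone the genes called were Cox6a1, Ndufaf7 and Sdhaf1. For that fit and for those without a library the share of all genes called in pMos against intMos was not counted. The replicate block gave 2 higher in pMos against intMos, and the block on pMos and intMos alone 3 higher and 7 lower. The median in pMos against intMos ran from -0.182 to -0.055 on leaving out each library. In pMos against cMos the replicate block shared 40 of 42 nuclear calls, and under it Uqcrh was lost. The log2 fold change of Cox6a2, pMos against cMos, turned to 0.254 with the replicate block, 1.267 with libraries 1 and 2 alone and 2.786 without cMos library 0, and ran from -1.985 to 2.786 on leaving out each library. The causes were not tested. Libraries 1 and 2 alone were tried because library 0 of each subset was known to stand apart. Low counts limit Cox6b2 and Cox7a1, the tested genes of this set with the fewest counts.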
